A study of Homo sapiens with 12 samples.

Results

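The genes described here are 10 members of the BCL2 family, the proteins that set whether the mitochondrial pathway of apoptosis is switched on. They were taken as a list of symbols by a rule that uses no measured value, though the list was drawn up with earlier results of these data known, and all 10 were found among the 58721 genes of the count table. BCL2, BCL2L1 (BCL-XL), MCL1 and BCL2A1 (BFL-1/A1) are the 4 anti-apoptotic members. The 6 pro-apoptotic members are the effectors BAX and BAK1 and the BH3-only genes BCL2L11 (BIM), BBC3 (PUMA), PMAIP1 (NOXA) and BID. EW8 and TC71 are established Ewing sarcoma lines, tumour cells driven by the EWS-FLI1 fusion. Both carried, on lentiviral vectors, c-Jun and c-Fos cDNAs joined in 1 transcript under the doxycycline-responsive TRE3G promoter, and the Tet-On 3G transactivator under the EF1 alpha promoter. These were selected cells, and the sources used here do not describe them as single clones. Cells were given doxycycline at 2000 ng/ml or vehicle (DMSO) for 72 h, which made 4 groups (EW8 vehicle, EW8 doxycycline, TC71 vehicle and TC71 doxycycline) of 3 polyA RNA-seq libraries each. No doxycycline-treated cells without the transgenes were analysed here, so responses to the drug itself and to the transgenes cannot be told apart. Nothing in the labels says that the 3 libraries of a group came from separate cultures, so p-values measure the spread between these libraries only.

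BAX and BAK1 form pores in the outer mitochondrial membrane, and cytochrome c that leaks through them starts the caspase cascade. The anti-apoptotic proteins hold BAX, BAK1 and the BH3-only proteins in check by binding the BH3 segment in a surface groove. BH3-only proteins relay stress signals: they occupy that groove, and BIM, PUMA and truncated BID can also activate the effectors directly. They differ in what they bind, since NOXA binds mainly MCL1 and BFL-1, whereas BIM and PUMA bind all the anti-apoptotic members. Drugs that fill the groove of BCL2, BCL-XL or MCL1 work by the same principle. Much of the family's control lies after transcription (MCL1 protein is short-lived and BID is activated by cleavage), so the transcript levels given here are not protein levels.

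Libraries held 42860665 to 60853649 counts. All 10 members passed the filter on low counts that left 21013 genes for testing. Expression is given as CPM, counts scaled to a library of fixed size with TMM factors, and as RPKM, the same value divided by exon length in kilobases, where different genes are compared. Counts at or under 6 in a library, which is 3 read pairs because each mate was counted, were taken as the floor. A gene passed the test at an adjusted p under 0.05 (edgeR quasi-likelihood test, Benjamini-Hochberg over all genes tested) and was past the fold limit if its absolute log2 fold change was also over 1. JUN rose from 21.6 ± 2.61 to 474 ± 44.8 CPM in EW8 and from 20.7 ± 4.01 to 756 ± 54.6 CPM in TC71 (SD, n = 3), and FOS rose from 36.8 ± 0.814 to 1078 ± 72 CPM and from 11.7 ± 0.426 to 1580 ± 120 CPM. Both passed the test in both lines. These counts hold transgene and endogenous reads together. Of 8 Ewing sarcoma marker genes all 8 were measured above the filter. CD99 was the highest at 807 CPM in EW8 vehicle and 558 CPM in TC71 vehicle, and NKX2-2 the lowest at 42.6 and 11.7 CPM. With doxycycline 1 of the 8 rose and 4 fell in EW8, beside 21.9% and 22% of all genes. In TC71, 2 rose and 4 fell, beside 25.1% and 20.4% of all genes. CD99 went to 1243 CPM in EW8 and 760 CPM in TC71, whereas PAX7 went from 105.8 to 44.4 CPM and from 105.5 to 43.8 CPM. TC71 vehicle replicate 1 stood apart from its group: counts differed between it and the other two libraries with a chi-square per gene of 65.5 and 63.1, against 5.39 to 11.2 for the other pairs of replicates in the 4 groups. Where leaving it out changed a call on a member, the value without it is given.

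In EW8, 4 of the 10 members rose with doxycycline (BCL2A1, PMAIP1, MCL1 and BCL2L1) and 1 fell (BCL2). Over all genes tested in EW8, 21.9% rose and 22% fell. In TC71, 3 members rose (BCL2A1, MCL1 and BAK1) and 1 fell (BCL2), where 25.1% of all genes rose and 20.4% fell. Vehicle and doxycycline libraries did not overlap for 6 members in EW8 and for 5 in TC71, against 56% and 50.7% of all genes. Past the fold limit were BCL2A1 and PMAIP1 upward in EW8, and BCL2A1 upward and BCL2 downward in TC71. The corresponding shares of all genes were 11.4% upward and 3.38% downward in EW8, and 12.3% upward and 3.67% downward in TC71. The median log2 fold change of the members was 0.24 in EW8 and -0.06 in TC71, beside -0.03 and 0.00 over all genes. Split by role, all 4 anti-apoptotic members passed the test in EW8 (3 up, 1 down) and 3 of 4 in TC71 (2 up, 1 down). BCL2A1 is in all the counts above of members that rose. It passed the filter on low counts only through the doxycycline groups and so had to differ. Its calls add nothing to the split by role or to the comparison with all genes. Of the 6 pro-apoptotic members 1 passed in each line, PMAIP1 in EW8 and BAK1 in TC71, in both cases upward. That count depended on the libraries and settings. Without TC71 vehicle replicate 1, 4 of the 6 passed in EW8 (PMAIP1, BAK1, BCL2L11 and BID, all upward) and 3 in TC71 (BAK1 upward, BAX and PMAIP1 downward). With all 12 libraries and a filter of 10 counts in every library, BAK1 (edgeR adjusted p = 0.0141), BCL2L11 (0.0327) and BID (0.0294) passed in EW8 and BAX (0.0262) in TC71. Shares of all genes, here and below, belong to the fit of all 12 libraries with the main filter. Counts of members under other settings have no such share beside them and are not to be set against these.

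**Figure D1:**
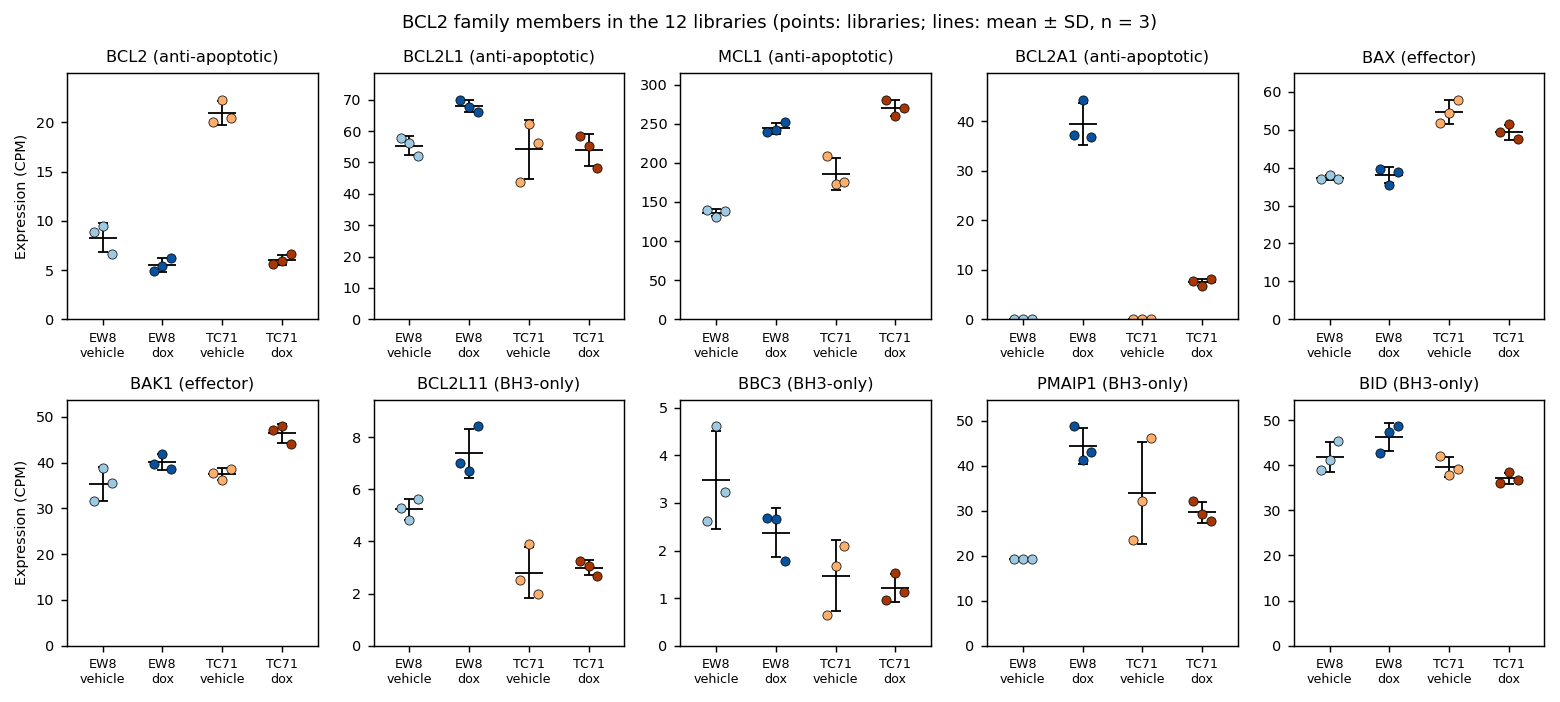
Expression in CPM (y axes, from 0, each with its own scale) of the 10 members in the 4 groups. Points are libraries and lines the mean ± SD of 3. BCL2A1 lay at the floor in the 6 vehicle libraries and between 36.8 and 44.4 CPM (EW8) or 6.64 and 8.08 CPM (TC71) with doxycycline, and the 3 TC71 vehicle libraries of PMAIP1 spread from 23.5 to 46.1 CPM.

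BCL2A1 codes for BFL-1/A1, an anti-apoptotic protein known mainly from blood cells and as a target of NF-kB. The gene (ENSG00000140379.7) lies on the minus strand at chr15:79960889-79971446 of hg38, and no exon of another gene overlaps its exons. In EW8 vehicle it had 2, 0 and 1 counts, and in TC71 vehicle 1, 0 and 0 counts. With doxycycline the EW8 libraries held 37.2, 44.4 and 36.8 CPM. The TC71 libraries held 7.76, 6.64 and 8.08 CPM. BCL2A1 therefore went from the floor to a level clear of it in every doxycycline library of both lines. Set against the floor per library, doxycycline raised it at least 292-fold in EW8 (edgeR adjusted p = 1.74e-15), and in TC71 at least 64.4-fold (adjusted p = 1.06e-13). BCL2A1 passed the filter on low counts only through the doxycycline groups where it was high, so it had to differ and these p-values add nothing to the counts. TC71 reached a lower level than EW8, by 2.40 ± 0.15 on the log2 scale (SE, edgeR adjusted p = 7.77e-11), with no overlap between the 6 libraries. The difference of the responses cannot be read from the fit, because both vehicle groups sat at the floor.

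MCL1, a short-lived anti-apoptotic protein that restrains BAK1 and binds NOXA, was the most abundant member per exon length in all 4 groups. Its gene (ENSG00000143384.12) is at chr1:150574551-150579738, minus strand. In EW8 the vehicle libraries held 139, 131 and 138 CPM and the doxycycline libraries 239, 241 and 252 CPM. In TC71 they held 209, 173 and 176 CPM with vehicle and 281, 259 and 270.1 CPM with doxycycline. The groups did not overlap in either line. MCL1 rose by 0.84 ± 0.07 (log2, SE) in EW8 (edgeR adjusted p = 6.77e-09) and by 0.54 ± 0.07 in TC71 (adjusted p = 1.85e-06). The response was smaller in TC71 by 0.30 ± 0.09 on the log2 scale (interaction, adjusted p = 0.0285), a call lost without EW8 vehicle replicate 2 (adjusted p = 0.0672), TC71 doxycycline replicate 2 (0.0747) or TC71 doxycycline replicate 3 (0.0525). Under vehicle MCL1 was 1.37-fold higher in TC71 than in EW8 (adjusted p = 9.47e-06), and with doxycycline the lines were 0.15 ± 0.07 apart (adjusted p = 0.0604, and 0.0167 or 0.0473 without TC71 vehicle replicate 1 or 2).

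BCL2L1 codes for BCL-XL, the long-lived anti-apoptotic protein of many solid tumours. Its gene (ENSG00000171552.12) is at chr20:31664452-31723989, minus strand. The EW8 vehicle libraries held 57.8, 56.3 and 52.0 CPM and the doxycycline libraries 70.02, 67.5 and 66.2 CPM. These groups did not overlap, and BCL2L1 rose by 0.30 ± 0.10 (log2, edgeR adjusted p = 0.0244). The call was lost without EW8 vehicle replicate 2 (adjusted p = 0.0508), without EW8 vehicle replicate 3 (0.0747) or without EW8 doxycycline replicate 1 (0.0574), and with scaling by library size alone (0.0517). In TC71, vehicle libraries at 43.8, 62.4 and 56.2 CPM overlapped doxycycline libraries at 58.5, 55.1 and 48.2 CPM, with a difference of -0.01 ± 0.10 (adjusted p = 0.986). Replicate 1 was the low TC71 vehicle library, and without it BCL2L1 fell by 0.22 ± 0.08 (adjusted p = 0.0238) and its response differed between the lines by -0.56 ± 0.10 (adjusted p = 0.000203). Of the exon length of BCL2L1, 43% is also exon of ABALON on the opposite strand, and reads falling on both genes were dropped by the authors' counting, so its level per exon length is a minimum.

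BCL2, the founding member and the target of venetoclax, fell in both lines. Its gene (ENSG00000171791.12) is at chr18:63123346-63320128, minus strand. In EW8 it went from 8.84, 9.46 and 6.65 CPM with vehicle to 4.87, 5.45 and 6.21 CPM with doxycycline. In TC71 it went from 20.05, 22.3 and 20.4 CPM to 5.65, 5.88 and 6.62 CPM. Neither pair of groups overlapped, and the TC71 vehicle libraries were above all the others. BCL2 fell by 0.59 ± 0.15 (log2, edgeR adjusted p = 0.00274) in EW8 and by 1.79 ± 0.15, which is 3.46-fold, in TC71 (adjusted p = 8.52e-09). The fall was larger in TC71 (interaction -1.20 ± 0.20, adjusted p = 0.000345). TC71 had 2.52-fold more BCL2 than EW8 under vehicle (adjusted p = 1.64e-07), and with doxycycline the lines were 0.14 ± 0.15 apart (adjusted p = 0.443). Per exon length BCL2 was the least abundant of the anti-apoptotic members that were above the floor, at 0.707 ± 0.126 RPKM in EW8 vehicle and 1.78 ± 0.103 RPKM in TC71 vehicle, against 31.2 and 42.5 RPKM for MCL1.

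**Figure D2:**
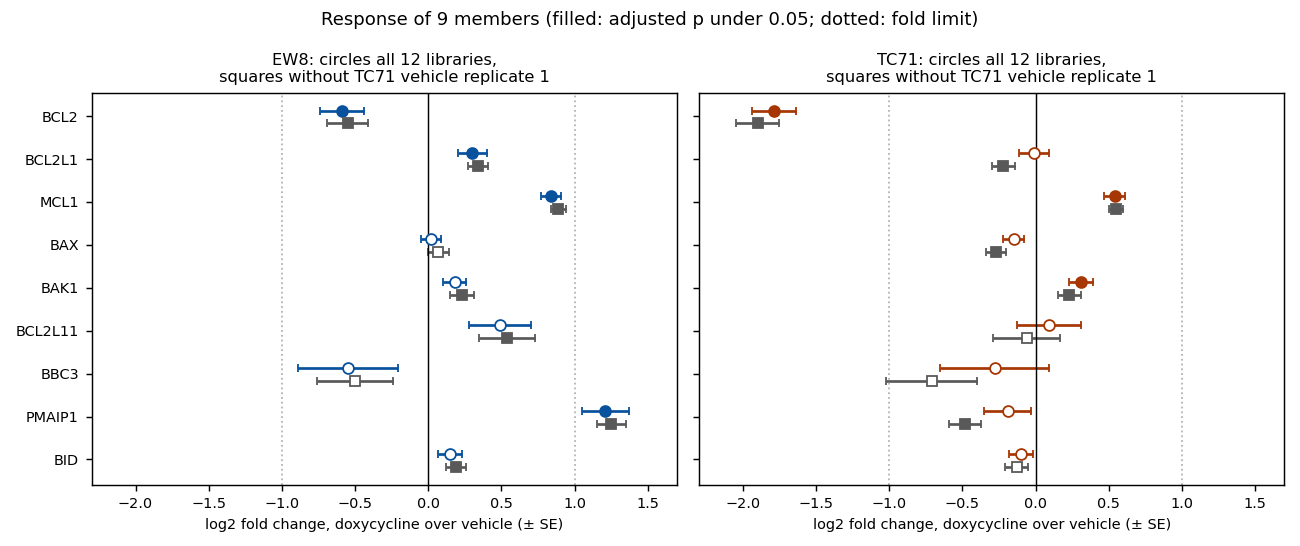
Response of 9 members to doxycycline in EW8 (left) and TC71 (right), as log2 fold change ± SE on the x axis; circles use all 12 libraries and squares leave out TC71 vehicle replicate 1, and filled symbols have an adjusted p under 0.05. BCL2A1 is left out because its vehicle libraries were at the floor. BCL2 lies below 0 and MCL1 above it in both lines, whereas PMAIP1 lies at 1.21 in EW8 and at -0.19 in TC71.

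The effectors BAX and BAK1 moved little. BAX (ENSG00000087088.19, chr19:48954815-48961798, plus strand) is the effector held mostly in the cytosol until activated. It was at 37.1, 38.1 and 36.95 CPM in EW8 vehicle and at 39.7, 35.5 and 38.7 CPM in EW8 doxycycline, a difference of 0.02 ± 0.07 (log2, edgeR adjusted p = 0.827). In TC71 the vehicle libraries held 51.8, 54.3 and 57.9 CPM and the doxycycline libraries 49.3, 51.4 and 47.4 CPM. Those TC71 groups did not overlap, but the difference of -0.15 ± 0.07 missed the threshold (adjusted p = 0.0983). Without TC71 vehicle replicate 1 BAX fell by 0.27 ± 0.07 in TC71 (adjusted p = 0.00381), and it also passed with DESeq2 (adjusted p = 0.0441) and without EW8 vehicle replicate 3 or any one of the EW8 doxycycline libraries (adjusted p from 0.031 to 0.0423). BAX was higher in TC71 than in EW8 under vehicle (1.46-fold, adjusted p = 1.82e-06) and with doxycycline (1.3-fold, adjusted p = 0.000135).

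BAK1 (ENSG00000030110.12, chr6:33572547-33580293, minus strand), the effector that sits in the mitochondrial membrane, was at 31.6, 38.9 and 35.6 CPM in EW8 vehicle and at 39.8, 41.9 and 38.6 CPM in EW8 doxycycline. These groups overlapped and the difference was 0.18 ± 0.08 (log2, edgeR adjusted p = 0.0773). In TC71 it rose from 37.8, 36.2 and 38.6 CPM to 47.2, 48.0 and 44.1 CPM, by 0.31 ± 0.08 (adjusted p = 0.00396), with no overlap. The responses of BAK1 in the lines differed by 0.13 ± 0.11 (adjusted p = 0.516), so the difference in call is not a shown difference in response. Without TC71 vehicle replicate 1 BAK1 passed in both lines, at 0.23 ± 0.08 in EW8 (adjusted p = 0.0154) and 0.23 ± 0.08 in TC71 (adjusted p = 0.0266). The EW8 difference of BAK1 also passed without EW8 vehicle replicate 2 (adjusted p = 0.0218), EW8 doxycycline replicate 3 (0.0422) or TC71 vehicle replicate 3 (0.0333).

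Among the BH3-only genes PMAIP1 had a response that differed between the lines. It codes for NOXA, which ties up MCL1 and BFL-1 and promotes breakdown of MCL1. The gene (ENSG00000141682.11) is at chr18:59899948-59904306, plus strand. In EW8 the vehicle libraries lay between 19.15 and 19.31 CPM and the doxycycline libraries held 48.8, 41.3 and 42.9 CPM, a rise of 1.21 ± 0.16 or 2.31-fold (edgeR adjusted p = 6.69e-06). In TC71 the vehicle libraries held 23.5, 32.1 and 46.1 CPM and enclosed the doxycycline libraries at 32.1, 29.2 and 27.6 CPM. The TC71 difference was -0.19 ± 0.16 (adjusted p = 0.354). The responses differed by -1.40 ± 0.23 (interaction, adjusted p = 0.000198). Replicate 1 was the lowest of the TC71 vehicle libraries, and without it PMAIP1 fell in TC71 by 0.48 ± 0.11 (adjusted p = 0.000735) and the interaction was -1.73 ± 0.15 (adjusted p = 1.23e-09). Without TC71 vehicle replicate 3, the highest, the TC71 difference was 0.04 ± 0.12 (adjusted p = 0.821).

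BCL2L11 codes for BIM, which binds every anti-apoptotic member and activates the effectors. The gene (ENSG00000153094.22) is at chr2:111119378-111168447, plus strand, and 10.9% of its exon length overlaps MIR4435-2HG on the opposite strand. EW8 vehicle libraries held 5.28, 4.82 and 5.62 CPM and EW8 doxycycline libraries 7.02, 6.68 and 8.43 CPM. The EW8 groups did not overlap, but with all 12 libraries the difference of 0.49 ± 0.21 (log2) had an edgeR adjusted p of 0.0637. It passed without TC71 vehicle replicate 1 (0.54 ± 0.19, adjusted p = 0.023), 2 (0.0249) or 3 (0.0247), and at 0.54 ± 0.14 in EW8 libraries alone (adjusted p = 0.00301). TC71 libraries held 2.52, 3.88 and 1.98 CPM with vehicle and 3.25, 3.06 and 2.69 CPM with doxycycline, which overlapped (0.09 ± 0.22, adjusted p = 0.775). BCL2L11 had a lower level in TC71 than in EW8 under vehicle, by 0.90 ± 0.21 (adjusted p = 0.00122), and with doxycycline, by 1.30 ± 0.21 (adjusted p = 3.65e-05).

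BBC3 codes for PUMA, a stress-induced protein that binds all the anti-apoptotic members. It had the fewest counts of the members above the floor, 34 to 212 per library. The gene (ENSG00000105327.17) is at chr19:47220822-47232766, minus strand. EW8 vehicle libraries held 2.62, 4.62 and 3.23 CPM and doxycycline libraries 2.69, 2.67 and 1.78 CPM. TC71 libraries held 0.649, 1.68 and 2.10 CPM with vehicle and 0.970, 1.53 and 1.14 CPM with doxycycline. The groups overlapped in both lines, and the log2 difference was -0.55 ± 0.34 in EW8 (edgeR adjusted p = 0.219) and -0.28 ± 0.37 in TC71 (adjusted p = 0.578). Replicate 1 was the lowest TC71 vehicle library, and without it the TC71 difference was -0.71 ± 0.31 (adjusted p = 0.0592). BBC3 was lower in TC71 under vehicle, by 1.24 ± 0.35 (adjusted p = 0.00493), and by 0.78 ± 0.30 without TC71 vehicle replicate 1 (adjusted p = 0.0253), which is inside the fold limit.

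BID, which caspase-8 cleaves to link death receptors to mitochondria, had the narrowest spread of the BH3-only genes across the groups. The gene (ENSG00000015475.18) is at chr22:17734138-17774770, minus strand. EW8 libraries held 38.9, 41.1 and 45.3 CPM with vehicle and 42.7, 47.4 and 48.7 CPM with doxycycline. TC71 libraries held 41.99, 37.8 and 39.2 CPM and 36.1, 38.5 and 36.8 CPM. Vehicle and doxycycline overlapped in both lines, with differences of 0.15 ± 0.08 (log2, edgeR adjusted p = 0.152) and -0.10 ± 0.08 (adjusted p = 0.359). Without TC71 vehicle replicate 1 the EW8 difference passed, at 0.19 ± 0.07 (adjusted p = 0.0336), as it did without EW8 vehicle replicate 3 (0.0322) or EW8 doxycycline replicate 1 (0.0291). With doxycycline BID was 1.25-fold lower in TC71 than in EW8 (adjusted p = 0.00188).

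AP-1 binds the sequences TGANTCA and TGACGTCA, and the members' promoters were searched for both, on both strands, in the 300-base RefSeq windows of build GRCh38.p14 around each start. Windows were given for 9 of the 10 members (14 windows), and MCL1 was not among them. TGANTCA was found in 1 of the 14 member windows, which belongs to BBC3, and in 7.71% of all 35116 promoter windows. TGACGTCA was found in none of the 14 and in 1.85% of all windows. The match, which carries TGAGTCA and starts 113 bases upstream of a BBC3 start, is shown because it is the single one among the members, in capitals within 30 bases read on the minus strand at chr19:47232762-47232791 of hg38.
BBC3 promoter: gcactggaaggTGAGTCActctggtgaggc
BBC3 itself did not pass the test in either line. A match in a window is not a measured binding site, and the absence of these letters from the other windows says nothing about sites elsewhere.

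Summed per exon length, the anti- and pro-apoptotic transcripts were close to each other under vehicle and stood apart with doxycycline. The members were listed with results of these data known, so these sums are a description without a test. In EW8 the anti-apoptotic sum went from 48.6 ± 1.3 to 113 ± 3.35 RPKM and the pro-apoptotic sum from 50.3 ± 2.49 to 64.9 ± 1.54 RPKM (SD, n = 3). In TC71 the anti-apoptotic sum went from 60.7 ± 1.93 to 85.5 ± 3.6 RPKM, with the pro-apoptotic sum at 63.1 ± 6.48 and 62.5 ± 2.5 RPKM. BCL2A1, which had to differ, made up 32% of the anti-apoptotic sum in EW8 doxycycline and 8.05% in TC71 doxycycline. The separation with doxycycline therefore rests in part on that gene, most of all in EW8. The ratio of the sums was thus near 1 in both vehicle groups (0.968 ± 0.0754 in EW8 and 0.971 ± 0.125 in TC71) and above 1 in both doxycycline groups (1.74 ± 0.0891 and 1.37 ± 0.0716). These levels hold for the listed members and for division by exon length only. BCL2L1 enters the sums at its minimum, since 43% of its exon length is shared with ABALON. A ratio near 1 under vehicle is thus not shown for exon length free of other genes. Family genes outside the sums include BOK, an effector-like member, at 32.8 RPKM in TC71 vehicle and 56.5 RPKM in TC71 doxycycline. Anti-apoptotic BCL2L2, also outside them, was at 6.28 and 5.85 RPKM there.

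Library by library, the log2 ratio of anti- to pro-apoptotic sums was 0.08, -0.13 and -0.09 in EW8 vehicle and 0.73, 0.88 and 0.80 in EW8 doxycycline. It was 0.12, -0.03 and -0.25 in TC71 vehicle and 0.49, 0.36 and 0.50 in TC71 doxycycline. The groups did not overlap in either line, and the means differed by 0.85 in EW8 and by 0.50 in TC71 (0.59 without TC71 vehicle replicate 1). The size depended on how the members were combined. In EW8 it was 0.51 on CPM and 2.53 as a difference of mean log2 RPKM, in which BCL2A1 weighs as much as any other gene. In TC71 it was 1.94 as a difference of means and 0.18 with the other family genes of a clear side added. For the differences of means a small constant was added to each RPKM before the log. BCL2A1 was at the floor under vehicle, so 2.53 and 1.94 depend on that constant and are not measured sizes. The make-up of the sums changed as well. BCL2A1 went from 0.039% to 32% of the anti-apoptotic sum in EW8 and from 0.0093% to 8.05% in TC71, while MCL1 went from 64.1% to 49.4% in EW8 and from 70% to 72.3% in TC71. With BCL2A1 left out, an alternative chosen after seeing the data, the log2 ratio still moved upward, by 0.29 in EW8 and by 0.38 in TC71. In the pro-apoptotic sum PMAIP1 went from 17.1% to 30.5% in EW8 and from 23.7% to 21.2% in TC71.

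**Figure D3:**
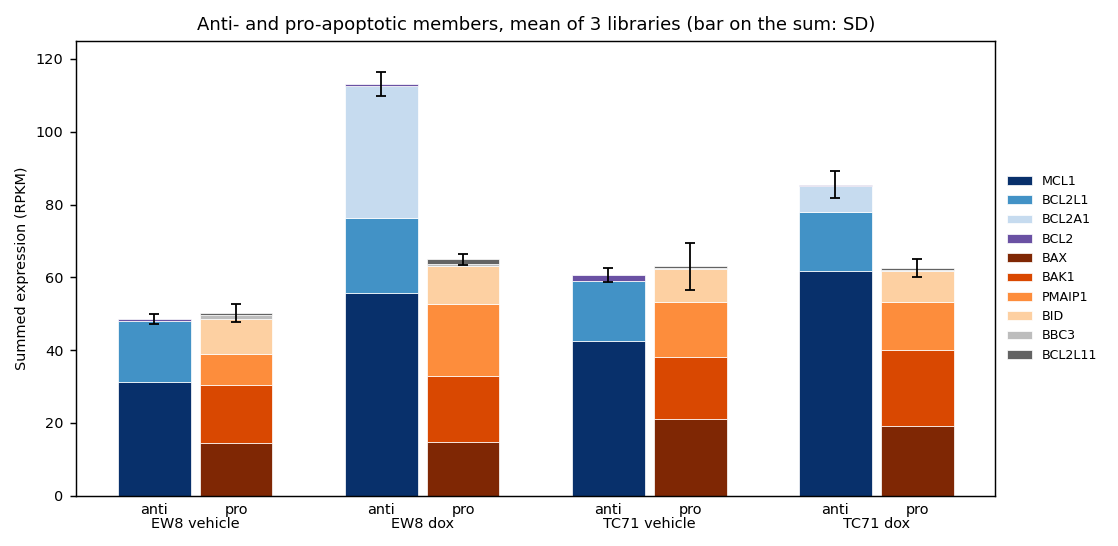
Summed expression in RPKM (y axis, from 0) of the 4 anti-apoptotic (left bar of each pair) and 6 pro-apoptotic members (right bar) in the 4 groups, stacked by gene as means of 3 libraries, with the SD of the sum. The bars of a pair are about level under vehicle. With doxycycline the anti-apoptotic bar reaches 113 RPKM in EW8 and 85.5 RPKM in TC71, against pro-apoptotic bars at 64.9 and 62.5 RPKM. BCL2A1, at the floor under vehicle, makes up 32% and 8.05% of those anti-apoptotic bars.

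Compared between the lines under vehicle, 4 of the 10 members were higher in TC71 (BCL2, MCL1, BAX and PMAIP1) and 2 were lower (BCL2L11 and BBC3), where 28.2% of all genes were higher and 33.5% lower. The libraries of the lines did not overlap for 6 members (64.7% of all genes), and 2 members, BCL2 and BBC3, were past the fold limit (30.6% of all genes). There were 5 higher without TC71 vehicle replicate 1, adding BCL2L1 (0.21 ± 0.08, edgeR adjusted p = 0.0214), and the 2 past the limit were BCL2 (1.48 ± 0.15) and PMAIP1 (1.13 ± 0.11). With all libraries BCL2L1 was at -0.03 ± 0.10 (adjusted p = 0.817). The difference in PMAIP1 was 0.82 ± 0.16 (log2, edgeR adjusted p = 0.000229). With doxycycline 2 members were higher in TC71 (BAX and BAK1) and 6 lower (BCL2L1, BCL2A1, BCL2L11, BBC3, PMAIP1 and BID), against 30.2% and 32.3% of all genes. There the lines did not overlap for 9 members (69.6% of all genes), and 2, BCL2A1 and BCL2L11, were past the limit (31% of all genes). PMAIP1 was higher in TC71 under vehicle and lower there with doxycycline, by 0.58 ± 0.16 (adjusted p = 0.00378). The call on BAK1, at 0.21 ± 0.08 (adjusted p = 0.0293), was lost with DESeq2 (adjusted p = 0.0541) and with each other scaling or filter tried. That on BBC3, at -0.97 ± 0.36 (adjusted p = 0.0262), was lost without EW8 doxycycline replicate 1 or 2 or TC71 doxycycline replicate 1 or 3 (adjusted p from 0.0693 to 0.0966), and that on BCL2L1 without TC71 doxycycline replicate 3 (0.0566). When the 4 groups were put in the order of their mean CPM, 12 of the 30 neighbouring pairs differed by the test and 18 did not. The 12 include the BCL2A1 pair of TC71 doxycycline and EW8 vehicle, which had to differ. The 18 include its pair of vehicle groups, both at the floor. No share of all genes was computed for such pairs, so these counts are no result about the members. For BCL2 the order was TC71 vehicle, EW8 vehicle, TC71 doxycycline and EW8 doxycycline, of which the last pair did not differ beyond its spread. For MCL1 it was TC71 doxycycline, EW8 doxycycline, TC71 vehicle and EW8 vehicle, of which the first pair did not differ. No neighbouring pair differed for BBC3 or BID.

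The response itself differed between the lines for 3 members, BCL2, MCL1 and PMAIP1, each lower in TC71. BCL2A1 is left out of this comparison, because its vehicle groups were at the floor and its difference of responses could not be read. Of all genes, 7.07% had a lower response and 12.2% a higher response in TC71. For BCL2 and PMAIP1 the difference was past the fold limit, as for 2.87% of all genes in that direction. Without TC71 vehicle replicate 1 there were 6 such members, adding BCL2L1 (-0.56), BAX (-0.33 ± 0.10, edgeR adjusted p = 0.0141) and BID (-0.32 ± 0.11, adjusted p = 0.0317). BID also passed without EW8 vehicle replicate 3 (adjusted p = 0.0288) or EW8 doxycycline replicate 1 (0.0244).

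By root-mean-square difference of log2 CPM over the 12 libraries, each gene centred on its mean, the genes nearest in pattern to BCL2A1 were SERPINB2 (0.47), MARCHF4 (0.48) and ETS1 (0.56). These genes had mean levels of at most 0.01504 CPM in both vehicle groups, where BCL2A1 had at most 0.02102 CPM, and like it were higher in EW8 than in TC71 doxycycline, at 21.8 and 9.63 CPM for SERPINB2, 53.4 and 10.3 CPM for MARCHF4 and 20.4 and 4.40 CPM for ETS1. Nearest to BCL2 were CA11 (0.24), SEMA3F (0.25) and TPTE2 (0.26). Nearest to PMAIP1 were LINC00963 (0.18), ERCC1 (0.23) and HHLA3 (0.23). Likeness was measured on the same 12 libraries and rests largely on the 4 group means.

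The remaining BCL2 family genes were read as a list of 13, of which 11 were tested (BCL2L10 and BCL2L14 were filtered out). In EW8, 2 rose and 1 fell, beside 21.9% and 22% of all genes. In TC71, 3 rose and 2 fell, beside 25.1% and 20.4% of all genes. Medians were -0.03 and 0.12 on the log2 scale. BOK, an effector-like member, rose from 6.09, 7.63 and 5.84 CPM to 18.6, 21.9 and 18.1 CPM in EW8, by 1.59 ± 0.10 (edgeR adjusted p = 1.79e-10). In TC71 BOK rose from 85.8, 88.5 and 92.6 CPM to 154.9, 157 and 147 CPM, by 0.78 ± 0.08 (adjusted p = 2.99e-07). The BH3-only genes HRK and BMF fell in TC71. HRK went from 0.936, 1.80 and 1.24 CPM to 0.194, 0.191 and 0.273 CPM, which rests on 8 to 12 counts in the doxycycline libraries, by -2.58 ± 0.38 (adjusted p = 1.65e-05). BMF fell by 1.07 ± 0.08 in TC71 (adjusted p = 1.55e-09) and differed by 0.05 ± 0.07 in EW8 (adjusted p = 0.628), a difference of responses of -1.12 ± 0.11 (adjusted p = 4.93e-07).

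Downstream of mitochondria, 18 of 18 listed genes were tested. In EW8, 2 rose and 6 fell, beside 21.9% and 22% of all genes. In TC71, 3 rose and 6 fell, beside 25.1% and 20.4% of all genes. None was past the fold limit. Medians were -0.17 and -0.05. Of the 7 caspase inhibitors 6 were tested (not BIRC7), of which 3 rose and 2 fell in EW8 and 4 rose and 1 fell in TC71, with medians of 0.42 and 0.25. The same shares of all genes stand beside these counts. BIRC3 (cIAP2), a ubiquitin ligase of the TNF receptor complex, went from 0.0902, 0.349 and 0.180 CPM to 15.7, 14.2 and 14.4 CPM in EW8, by 6.14 ± 0.31 (edgeR adjusted p = 1.11e-11). The EW8 vehicle libraries held 4 to 16 BIRC3 counts, the lowest of them under the floor, so the size of this rise is uncertain. In TC71 BIRC3 stayed at 1.20, 1.48 and 1.40 CPM against 0.945, 1.24 and 1.73 CPM (-0.06 ± 0.26, adjusted p = 0.895), and the responses differed by -6.20 ± 0.41 (adjusted p = 4.12e-09). BIRC2 (cIAP1) rose in both lines, by 1.06 ± 0.07 and 0.77 ± 0.07 (adjusted p = 4.47e-10 and 2.39e-08).

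Of 19 genes listed for the DNA damage and stress response, 6 rose and 7 fell in EW8, beside 21.9% and 22% of all genes. In TC71, 8 rose and 5 fell, beside 25.1% and 20.4% of all genes. Medians were -0.12 and 0.02. CDKN1A (p21), which arrests the cell cycle, rose by 3.20 ± 0.19 in EW8 (edgeR adjusted p = 1.43e-10) and by 1.71 ± 0.18 in TC71 (adjusted p = 3.42e-07). GADD45A, a stress-response gene, rose by 3.53 ± 0.10 and 3.25 ± 0.09 (adjusted p = 2e-15 and 3.57e-15). TNFRSF10B, which codes for the death receptor DR5, rose from 118, 119 and 119 CPM to 414, 412 and 398 CPM in EW8 and from 122, 131 and 131 CPM to 287, 277 and 287 CPM in TC71. TP53INP1 and PHLDA3 were past the fold limit upward in TC71 alone of the lines, at 2.41 ± 0.11 and 1.47 ± 0.09, against 0.37 ± 0.11 and 0.81 ± 0.09 in EW8. BTG2 and SESN1 fell in TC71 by 1.55 ± 0.08 and 1.10 ± 0.16, and in EW8 by 0.97 ± 0.07 and 0.55 ± 0.16. The EW8 call on SESN1 was lost without EW8 doxycycline replicate 1 (-0.44, edgeR adjusted p = 0.0742) or 2 (-0.36, adjusted p = 0.105).

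Among 14 genes listed as regulators of the members, 1 rose and 7 fell in EW8, beside 21.9% and 22% of all genes. In TC71, 4 rose and 7 fell, beside 25.1% and 20.4% of all genes. The median was -0.23 in each line. TP63 and TP73, transcription factors of apoptosis genes, fell past the limit in at least one line. TP63 went from 148, 145 and 150.2 CPM to 70.9, 70.8 and 72.3 CPM in EW8, by -1.05 ± 0.17 (edgeR adjusted p = 5.49e-05). This EW8 call was lost with DESeq2 (-1.04 ± 0.46, adjusted p = 0.0625). In TC71 TP63 was low throughout, at 0.726, 2.13 and 2.68 CPM with vehicle and 0.533, 0.143 and 0.501 CPM with doxycycline, and fell by 2.23 ± 0.40 (adjusted p = 0.00015). TP73 fell by 0.61 ± 0.14 in EW8 (adjusted p = 0.00176) and by 1.41 ± 0.16 in TC71 (adjusted p = 9.23e-07).

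**Figure D4:**
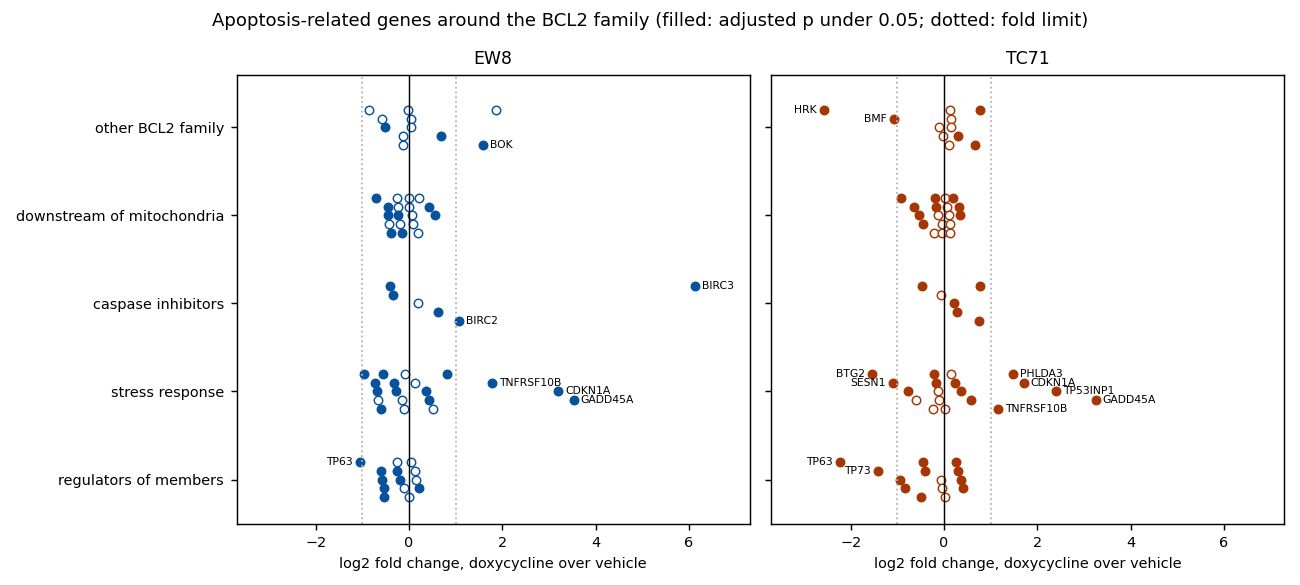
Log2 fold change with doxycycline (x axis) of the tested genes of 5 lists around the BCL2 family (rows; points are spread vertically for legibility only) in EW8 (left) and TC71 (right). Filled points have an adjusted p under 0.05 and named genes are past the fold limit. BIRC3 stands at 6.14 in EW8 and is not past the limit in TC71, and no gene downstream of mitochondria is past the limit in either line.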

How the data were processed

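RNA from EW8 and TC71 cells was measured in 12 libraries. The authors checked reads with FastQC, aligned them with STAR to hg38 and counted them over GENCODE 29 genes with featureCounts 2.0.1, and the deposited values are raw counts per gene with an exon length. The command in the header sets neither pairing nor strand and leaves multi-mapping reads and gene overlaps at their defaults, so each mate was counted (67.3% to 69.8% of counts from 20 to 199 were even), and reads shared between genes were dropped. Symbols were matched by gene ID (99.2%).

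Counts were fitted with edgeR 4.0.16 in R 4.3.3 (filterByExpr, TMM, quasi-likelihood, the 4 groups as levels of 1 fit, common dispersion 0.0143). Folds against a group at the floor are bounds against 6 counts, per library, and cover counting error only. On simulated counts over 21013 genes for EW8 doxycycline against vehicle, 74.6%, 88.1% and 100% of genes changed by 1.5, 2 and 4-fold were recovered. The simulation changed 67, 67 and 66 genes, all with a mean over 1 CPM, and gave 13 false calls. It changed far fewer genes than were called in the data and had no outlying library, so these rates need not hold for the data. Named genes were the 10 members, JUN and FOS, list genes past the fold limit in a line (at most 10 a list) and the 3 genes nearest in pattern to each member past it. CD99, NKX2-2 and PAX7 were named after their values were seen. A gene of the stress-response list is not reported here. Members and lists were chosen with earlier results of these data known. Alternatives were DESeq2 1.42.0, other scalings and filters, 1 line alone, a replicate block and leaving out each library.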

Additional observations from a re-analysis of the deposited data

Results flagged for a closer look

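Genes of the surrounding lists were named for a response past the fold limit in a line. That choice favours a difference between the lines, so their count below is no result about the lists. Of all genes tested, 12.2% had a higher and 7.07% a lower response in TC71 than in EW8. The response to doxycycline differed between the lines, by the interaction test of edgeR (TC71 minus EW8, log2, Benjamini-Hochberg over all genes tested), for 3 members and 11 of the named genes of the surrounding lists. Among the members these were BCL2 (-1.20, adjusted p = 0.000345), MCL1 (-0.30, adjusted p = 0.0285) and PMAIP1 (-1.40, adjusted p = 0.000198). The smaller value of MCL1 lost its call without any of 3 libraries. In the rest of the BCL2 family they were HRK (-1.99, adjusted p = 0.00774), BOK (-0.80, adjusted p = 0.000155) and BMF (-1.12, adjusted p = 4.93e-07). Among caspase inhibitors they were BIRC3 (-6.20, adjusted p = 4.12e-09) and BIRC2 (-0.28, adjusted p = 0.0479). The size for BIRC3 rests on 4 to 16 counts in the EW8 vehicle libraries. The call on BIRC2 was lost without EW8 vehicle replicate 1 or 2, TC71 vehicle replicate 2 or any one of the TC71 doxycycline libraries (adjusted p from 0.0609 to 0.117), and with no filter on low counts (0.107).

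Among stress-response genes the difference was negative for CDKN1A (-1.49, adjusted p = 0.000345), TNFRSF10B (-0.63, adjusted p = 2.23e-06) and BTG2 (-0.58, adjusted p = 0.000932), and positive for TP53INP1 (2.05, adjusted p = 2.89e-08) and PHLDA3 (0.66, adjusted p = 0.00116). For TP73 it was -0.80 (adjusted p = 0.0132). CDKN1A in TC71 vehicle replicate 1 was at 16.04 CPM against 35.2 and 35.5 CPM in the other two, and without that library its difference was -1.91 (adjusted p = 4.78e-15). Without it the difference also passed for GADD45A (-0.41, adjusted p = 0.0202), SESN1 (-0.72, adjusted p = 0.0168, and -0.81 without EW8 doxycycline replicate 2) and TP63 (-1.67, adjusted p = 9.64e-06). Induction of JUN and FOS was itself larger in TC71, by 0.73 (adjusted p = 0.00217) and 2.21 (adjusted p = 6.41e-12), and its part in the differences above was not tested.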

How the results depend on the processing

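Replicate numbers did not pair the samples: deviations of same-numbered vehicle and doxycycline libraries correlated at -0.0282 to 0.00977. With the replicate block the counts of members called in EW8 (4 higher, 1 lower) and TC71 (3 higher, 1 lower) were as without it, and the difference of MCL1 between the lines with doxycycline (0.15) passed (adjusted p = 0.0399). Under the other alternatives the number of members called moved as follows. In EW8 there were 7 higher with the line alone. With at least 10 counts in every library, a filter that removes BCL2A1, there were 6 higher (BAK1, BCL2L11 and BID gained) and 1 past the fold limit. In TC71 there were 2 lower with library size alone, with DESeq2 and with the filter of 10 counts, which left 1 past the limit. The filter gave 5 members with a lower response in TC71. With doxycycline 1 member was higher in TC71 under median-ratio factors, library size alone, DESeq2, no filter and the filter of 10 counts. The cause of these moves was not tested beyond the removal of BCL2A1.

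Leaving out each library in turn gave, in EW8, 4 to 7 members higher, and in TC71 1 to 4 lower, where 4 came without TC71 vehicle replicate 1. The response was lower in TC71 for 2 to 6 members. Between the lines 1 to 3 members were past the limit under vehicle (1 without EW8 vehicle replicate 2), and with doxycycline 1 to 3 were higher in TC71. The change in log2 balance ranged from 0.81 to 0.91 in EW8 and from 0.40 to 0.59 in TC71.

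The balance in EW8 (0.85) was 0.51 on CPM, 2.53 as a difference of mean log2 RPKM, 0.70 on exon length free of other genes and 0.29 with BCL2A1 left out, the last pair chosen after seeing the data. In TC71 (0.50) it was 1.94 as a difference of means and 0.18 with other family genes added, a sum that includes BOK. The change from vehicle to doxycycline kept its sign in all of these, which does not speak to the level of the ratio. The differences of means rest on BCL2A1, at the floor under vehicle, and on a constant added before the log. Their sign without BCL2A1 was not computed.

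Small differences that had not passed changed sign. With library size alone these were BAX (-0.03) and BMF (-0.01) in EW8 and BCL2L11 (0.00) in TC71. Leaving out a library moved TC71 values of BCL2L1 from -0.22 to 0.11, of BCL2L11 from -0.15 to 0.41, of PMAIP1 from -0.48 to 0.04 and of BIRC3 from -0.31 to 0.13. It moved the difference of responses of BBC3 from -0.21 to 0.50. Under vehicle, TC71 against EW8, BCL2L1 ran from -0.14 to 0.21 (adjusted p = 0.0214 without TC71 vehicle replicate 1; 0.02 with the filter of 10 counts) and BID from -0.13 to 0.02. Over the 10 members, 806 of 881 values kept direction and call.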
